A study of Mus musculus with 6 samples.

Results

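Splicing factor transcripts were followed in B cells before and after engagement of TLR7. The genes were taken by name, with the prefixes chosen when earlier results of these data were known. Every deposited row whose symbol begins with Srsf, Hnrnp, Sf3a, Sf3b, Prpf or Snrp was included. This gave 62 of 23420 genes, of which 60 were kept among the 11844 genes tested, at a log2 CPM of -1 or more (0.5 CPM, read counts scaled to an equal library total) in at least 3 of 6 libraries. By prefix, 10 of 11 Srsf, 18 of 18 Hnrnp, 3 of 3 Sf3a, 5 of 5 Sf3b, 13 of 13 Prpf and 11 of 12 Snrp genes were kept. The other two, Srsf12 and Snrpn, are described with their prefixes.

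The cells were splenic B cells purified with beads from 3 male mice of the lupus-prone MRL/lpr strain, 5 to 7 weeks old per the labels and 5 weeks old per the title of the series. Every mouse was TLR9-/-, carried the Fas lpr mutation and had wild-type TLR7, so both groups share these genotypes, and neither TLR9-sufficient nor Fas-sufficient cells were analysed here. One group was left unstimulated and the other received CL097, an imidazoquinoline that activates TLR7, at 5 µg/ml for 4 h. Each group had 3 libraries, numbered 1 to 3, and each comparison below is CL097 against unstimulated, paired by number. Whether a number stands for a mouse is not in the labels, so the p-values measure the spread between these samples, part of which may be technical.

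Introns are removed by the spliceosome, which assembles on each transcript from small nuclear ribonucleoproteins (snRNPs) built around the U1, U2, U4, U5 and U6 RNAs. The Snrp genes encode the Sm proteins, which form a ring on the U1, U2, U4 and U5 RNAs, and proteins particular to U1 or U2. Sf3a and Sf3b genes encode the 2 protein complexes of U2 that hold the branch point, and Prpf genes encode mostly U4/U6, U5 and U1 associated factors. SR proteins (Srsf) generally bind exons and favour their use, while hnRNP proteins (Hnrnp) coat nascent transcripts and often act against splice site use. Sm proteins and the U1 snRNP are also classic targets of autoantibodies in lupus, and their RNAs are among the ligands of TLR7.

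Splicing factor transcripts as a group were higher after CL097. Of the 60 members, 30 rose, 1 fell (Hnrnpul2) and 29 were not called, where a call needed a Benjamini-Hochberg adjusted p under 0.05 in limma and a log2 fold change over 0.5 in size. CL097 changed much of the transcriptome, with 51.7% of all tested genes called, 25.9% higher and 25.8% lower. Members rose in 50.0% of cases and fell in 1.67%. Their median log2 fold change was 0.50, against 0.00 over all tested genes, and single members ran from -0.78 for Hnrnpul2 to 2.04 for Prpf40b. The median difference within pairs was 0.56 for number 1, 0.52 for number 2 and 0.37 for number 3. Without the fold threshold, 44 members were higher and 8 lower at an adjusted p under 0.05, where 33.6% and 33.0% of all tested genes were (a count added after seeing the data). In all 3 pairs 46 members were higher and 9 lower, beside 39.7% and 40.0% of tested genes. All CL097 libraries lay above all unstimulated libraries in 44 members, beside 33.4%, and below them in 8, beside 32.4%. A fit without pairing called the same 30 members higher and 1 lower, beside 24.0% and 23.6%.

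The summed level of the 62 members was 13865.3, 13869.1 and 14216.7 CPM in the unstimulated libraries 1 to 3 and 18312.6, 17770.9 and 17535.0 CPM in the CL097 libraries 1 to 3. The groups did not overlap, and the mean went from 13980.0 ± 201.8 to 17870.0 ± 398.7 CPM (SD, n = 3), a ratio of 1.28. In the same libraries, markers of B cells summed to between 5812 and 6671 CPM without and between 2339 and 2838 CPM with CL097, and 4 of the 6 marker genes were called lower. In bulk samples, fewer cells of a type and less RNA per cell cannot be told apart.

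**Figure D1:**
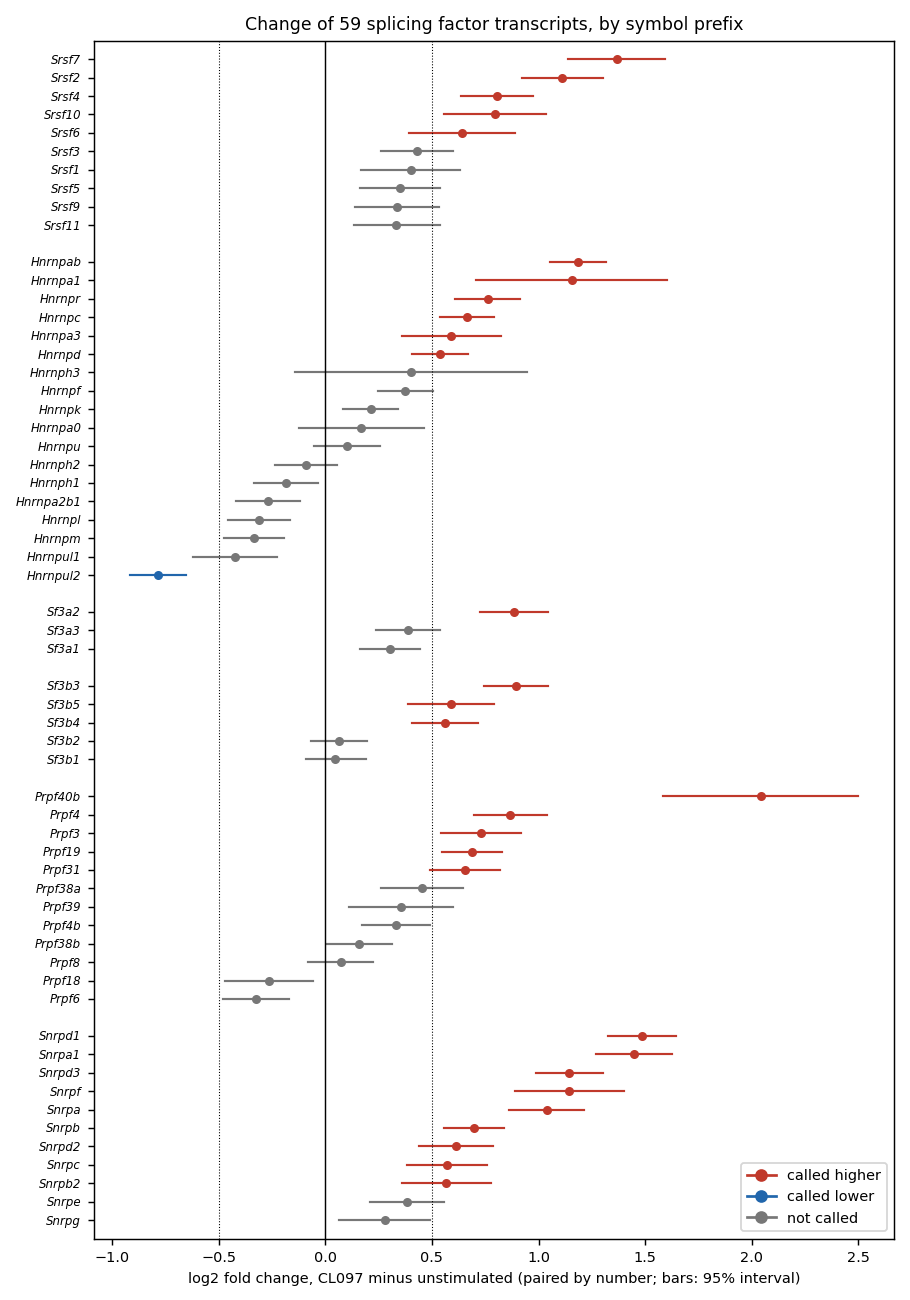
Log2 fold change of 59 of the 60 kept members (x axis, CL097 minus unstimulated, paired by number) with its 95% interval, grouped by prefix, with dotted lines at the fold threshold of 0.5 in either direction. All 11 Snrp and all 10 Srsf points lie right of 0, whereas Hnrnp points run from -0.78 to 1.18.

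The windows upstream of the start are shown for the member with the largest rise among those with an entry in each prefix, because these members rose together. They are the 250 bases before the RefSeq start on GRCm38.p6, at chr7:66060086-66060335 (plus strand) for Snrpa1, chr10:80798485-80798734 (plus strand) for Sf3a2, chr8:110846804-110847053 (minus strand) for Sf3b3, chr15:99294991-99295240 (plus strand) for Prpf40b, chr17:80207306-80207555 (minus strand) for Srsf7 and chr11:51606882-51607131 (minus strand) for Hnrnpab. Each is written 5′ to 3′ on the gene's strand, with capitals for 4 motifs on either strand: the E-box CACGTG, the ETS-type CCGGAAG, the CCAAT box and the TATA-type TATAAA.
Snrpa1: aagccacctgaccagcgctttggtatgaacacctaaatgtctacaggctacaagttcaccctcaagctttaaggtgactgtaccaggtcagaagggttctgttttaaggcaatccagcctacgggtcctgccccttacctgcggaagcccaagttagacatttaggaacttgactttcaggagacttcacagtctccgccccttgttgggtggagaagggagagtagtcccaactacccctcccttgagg
Sf3a2: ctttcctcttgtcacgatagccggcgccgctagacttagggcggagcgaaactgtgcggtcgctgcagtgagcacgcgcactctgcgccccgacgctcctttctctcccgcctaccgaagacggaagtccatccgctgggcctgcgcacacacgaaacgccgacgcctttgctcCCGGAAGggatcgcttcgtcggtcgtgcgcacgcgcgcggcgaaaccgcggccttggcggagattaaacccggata
Sf3b3: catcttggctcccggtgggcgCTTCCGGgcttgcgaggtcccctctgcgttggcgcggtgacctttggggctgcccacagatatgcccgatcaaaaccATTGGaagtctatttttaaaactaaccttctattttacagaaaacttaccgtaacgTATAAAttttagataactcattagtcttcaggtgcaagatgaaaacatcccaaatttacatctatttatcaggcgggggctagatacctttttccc
Prpf40b: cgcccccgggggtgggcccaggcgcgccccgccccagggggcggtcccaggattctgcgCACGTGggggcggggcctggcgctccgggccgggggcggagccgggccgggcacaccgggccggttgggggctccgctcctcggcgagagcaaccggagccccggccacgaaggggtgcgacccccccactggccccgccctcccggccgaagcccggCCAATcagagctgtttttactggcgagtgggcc
Srsf7: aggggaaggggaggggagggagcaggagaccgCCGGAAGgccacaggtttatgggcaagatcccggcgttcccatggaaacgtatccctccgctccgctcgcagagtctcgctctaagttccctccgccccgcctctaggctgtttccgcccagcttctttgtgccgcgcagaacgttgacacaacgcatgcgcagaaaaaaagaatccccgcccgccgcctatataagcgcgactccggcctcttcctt
Hnrnpab: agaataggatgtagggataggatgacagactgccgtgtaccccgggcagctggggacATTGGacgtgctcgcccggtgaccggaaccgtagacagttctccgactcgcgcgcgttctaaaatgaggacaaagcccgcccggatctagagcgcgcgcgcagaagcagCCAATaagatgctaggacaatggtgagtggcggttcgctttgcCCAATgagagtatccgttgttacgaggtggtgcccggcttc

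Annotated GENCODE transcripts can begin further upstream: the Snrpa1 and Sf3a2 windows lie within the GENCODE span of their gene, and those of Prpf40b and Srsf7 partly so. The motifs differed between these windows. The Snrpa1 window held none of the 4 motifs, Prpf40b held CACGTG at position -191 and CCAAT at -33, and Hnrnpab held 3 CCAAT boxes. CCGGAAG stood in the Srsf7, Sf3a2 and Sf3b3 windows. An entry was found for 53 of the 60 members, and those without one included Hnrnpul2, Sf3b5, Sf3b4, Prpf18, Snrpd1 and Snrpb. CACGTG, a site of Myc and related factors, was in the windows of 5 of 25 members that rose (20.0%: Hnrnpa3, Hnrnpd, Prpf40b, Prpf3 and Snrpa) and of 2 of 28 that did not (7.14%), beside 10.2% of 8861 tested genes and 6.86% of all 27025 genes in the table. CCGGAAG was in 36.0% of the members that rose and 28.6% of those that did not, beside 16.4% of tested genes. CCAAT was in 52.0% and 50.0%, beside 40.9%, and TATAAA in 12.0% and 7.14%, beside 7.69%. These shares are descriptions without a test, and a match of letters is not a bound site.

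Sm proteins and their partners in U1 and U2 had the highest median of any prefix. Of 11 kept Snrp genes, 9 rose (81.8%, beside 25.9% of all tested genes) and none fell (beside 25.8%). The median log2 fold change was 0.70. No Snrp gene was lower at an unadjusted p under 0.05 in limma either, where 4108 of all 11844 tested genes were. In all 11 every CL097 library lay above every unstimulated library, beside 33.4% of tested genes. Their summed level was 790.7, 725.9 and 721.6 CPM without and 1497.0, 1331.5 and 1329.3 CPM with CL097, a ratio of 1.86.

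Snrpd1 encodes SmD1, a protein of the ring common to the U1, U2, U4 and U5 snRNPs. It was at 64.8, 56.6 and 65.1 CPM in the unstimulated libraries and at 185.0, 163.5 and 173.3 CPM in the CL097 libraries. All CL097 values lay far above all unstimulated values, and the log2 fold change was 1.49 (SE 0.07, limma adjusted p = 2.91e-06), a 2.80-fold rise.

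Snrpa1 (chromosome 7, 66059003 to 66074587, plus strand, GRCm38) encodes U2 A′, which binds the U2 RNA together with the product of Snrpb2. Its levels were close together at 54.0, 55.2 and 53.6 CPM without stimulus, and 161.7, 141.3 and 142.4 CPM with CL097. The groups were well apart, with a log2 fold change of 1.45 (SE 0.08, limma adjusted p = 5.00e-06). Snrpd3 (chromosome 10, 75517551 to 75537381, plus strand), which encodes SmD3, was at 106.9, 101.1 and 89.3 CPM and rose to 234.8, 211.6 and 210.3 CPM. Again no library of one group reached the other, and the log2 fold change was 1.15 (SE 0.07, limma adjusted p = 7.44e-06).

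Within the Sm ring the 7 members moved by unequal amounts, although they sit in the particle in equal numbers. After Snrpd1 and Snrpd3 came Snrpf with a log2 fold change of 1.15, Snrpb with 0.70 and Snrpd2 with 0.61, all called. Snrpe and Snrpg, at 0.39 and 0.28, had an adjusted p of 0.00278 and 0.0289 but stayed under the fold threshold. The gap between the ends of this order was larger than the spread between pairs: Snrpd1 differed by 1.51, 1.53 and 1.41 within pairs 1 to 3 and Snrpg by 0.17, 0.35 and 0.32. On the scale of CPM per kb of annotated exon, unstimulated levels of ring transcripts ran from 19.6 for Snrpd2 and 19.7 for Snrpg to 102.8 for Snrpb, and CL097 levels from 23.8 for Snrpg to 167.1 for Snrpb. The per kb values use all annotated exons of a gene, so a gene with many rarely used exons reads low.

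Snrpn, which encodes a close relative of SmB used mainly in brain, was listed at the same value, 0.03 CPM, in all 6 libraries, near the bottom of the deposited range. The U1 proteins of Snrpa (log2 fold change 1.04) and Snrpc (0.57) also rose, as did U2 B″ (Snrpb2, 0.57). The call of Snrpb2 rested on number 1: without it the log2 fold change was 0.49 (limma adjusted p = 0.000303), below the fold threshold. Exons of Snrpa, Snrpd3 and Snrpf overlap annotated exons of genes on the other strand, and those of Snrpa1 overlap a gene on the same strand. As the strand setting of the counting is not given in the sources used here, reads of such pairs cannot be told apart. Over all prefixes, 21 of 60 members had such a partner on the other strand and 5 on the same strand.

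**Figure D2:**
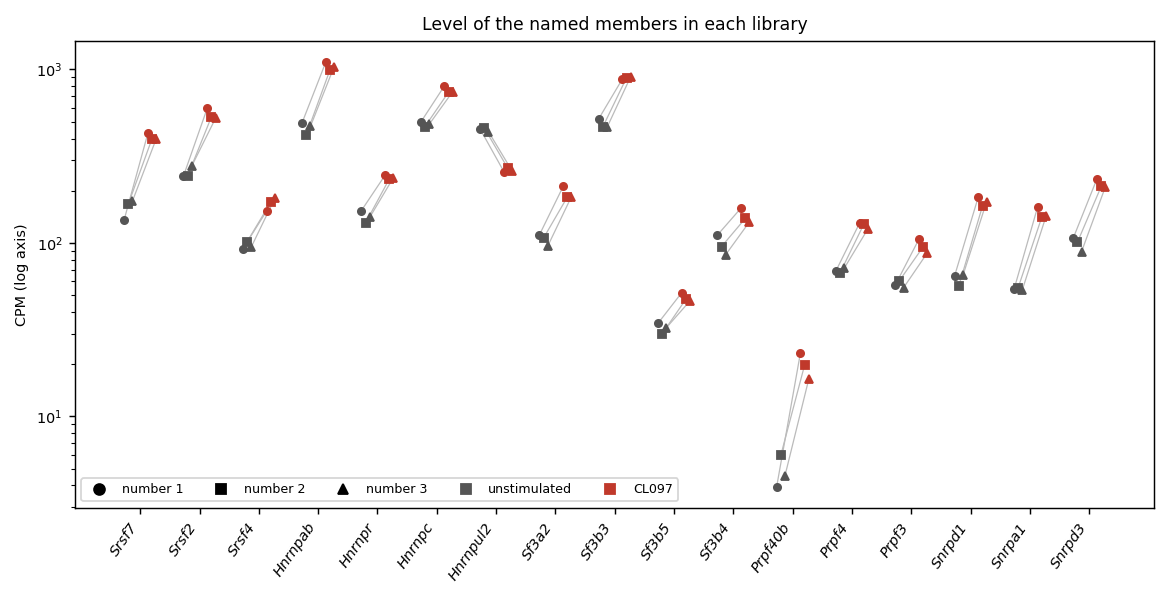
Level (CPM, log axis) of the 17 members named by rule in each of the 6 libraries, with the libraries of a number joined by a line, grey for unstimulated and red for CL097. Every line rises except those of Hnrnpul2, and in no member do the groups overlap.

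The branch point complexes of U2 were mixed, with Sf3b1, whose product contacts the branch site, not called. Of Sf3b subunits outside the prefix rule, Phf5a was called higher (log2 fold change 0.85) and Sf3b6 was not called (0.34). In Sf3b, 3 of 5 genes rose (60.0%, beside 25.9% of all tested genes), and the median log2 fold change was 0.56. In Sf3a, 1 of 3 rose (33.3%, not far from that 25.9%), with a median of 0.39. No gene of either prefix fell (beside 25.8%). None was lower at an unadjusted p under 0.05 in limma, where 4108 of all 11844 tested genes were.

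Sf3b3 (chromosome 8, 110810239 to 110846787, minus strand), a large scaffold subunit of Sf3b, stood at 519.9, 467.6 and 463.7 CPM without and at 882.8, 898.3 and 910.8 CPM with CL097. The 3 CL097 libraries lay close together and above every unstimulated library, with a log2 fold change of 0.89 (SE 0.06, limma adjusted p = 1.96e-05). Its annotated exons overlap those of Cog4 on the other strand and a small nucleolar RNA gene on its own strand. Sf3b5 and Sf3b4 rose less. Sf3b5 went from 34.5, 30.0 and 32.5 to 51.7, 47.5 and 46.4 CPM (log2 fold change 0.59, SE 0.09). Sf3b4, whose product touches the RNA upstream of the branch point, went from 111.0, 95.3 and 85.6 to 159.1, 138.4 and 132.2 CPM (0.56, SE 0.07). In neither did the groups overlap.

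Sf3b1, whose product holds the branch point and which is recurrently mutated in human leukaemias, was the exception beside Sf3b2. It was at 692.7, 825.4 and 825.4 CPM without and 764.8, 845.1 and 807.3 CPM with CL097. The groups overlapped, and the log2 fold change was 0.05 with a 95% interval from -0.09 to 0.19. Sf3b2 gave 0.06, with an interval from -0.07 to 0.20. Both intervals lie below the whole interval of Sf3b3, which ran from 0.74 to 1.04.

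In Sf3a the rise was that of Sf3a2 (chromosome 10, 80798198 to 80804924, plus strand), at 111.3, 106.8 and 95.8 CPM without and 211.6, 183.7 and 185.0 CPM with CL097. The groups were apart, with a log2 fold change of 0.89 (SE 0.07, limma adjusted p = 2.65e-05), and its exons overlap those of Plekhj1 on the other strand. Sf3a3 and Sf3a1 had log2 fold changes of 0.39 and 0.30 with an adjusted p of 0.00139 and 0.00341, under the fold threshold.

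Among the 13 Prpf genes 6 rose (46.2%, beside 25.9% of all tested genes) and none fell (beside 25.8%). The median log2 fold change was 0.45. Of the 13 genes 2 were lower at an unadjusted p under 0.05 in limma, beside 4108 of all 11844 tested genes. Prpf40b showed the largest rise of all members, from a low level. Its product is related to a yeast U1 protein that bridges the ends of the intron. Prpf40b (chromosome 15, 99295087 to 99317018, plus strand) was at 3.94, 5.98 and 4.56 CPM in unstimulated and 23.2, 19.7 and 16.4 CPM in CL097 libraries. The groups were far apart relative to their spread, with a log2 fold change of 2.04 (SE 0.19, limma adjusted p = 7.93e-05), or 4.12-fold.

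Prpf4, Prpf3 and Prpf31, which encode proteins of the U4/U6 snRNP, were called higher. Of the other snRNP proteins listed below, Nhp2l1, which binds U4, was also called higher (log2 fold change 1.38). Ppih (0.18) and Sart3 (0.24) were not called. Prpf4 was at 69.2, 67.5 and 71.7 CPM without and 130.7, 128.6 and 120.9 CPM with CL097 (log2 fold change 0.87, SE 0.07, limma adjusted p = 4.22e-05). Prpf3, which binds Prpf4 on the U4/U6 duplex, was at 57.3, 60.7 and 55.3 CPM and at 105.5, 95.1 and 87.7 CPM (0.73, SE 0.08, limma adjusted p = 0.000162). All CL097 libraries exceeded all unstimulated libraries in both genes. Prpf31, mutated like PRPF3 in human retinitis pigmentosa, rose by 0.65, and Prpf19, a ubiquitin ligase of the activated spliceosome, by 0.69.

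Neither U5 protein with a Prpf symbol was called. Of the U5 proteins among the other snRNP proteins listed below, Eftud2 (log2 fold change 0.74), Snrnp40 (0.61) and Txnl4a (0.56) were called higher. Snrnp200, Ddx23 and Cd2bp2 were not called. Prpf8, the protein at the heart of the catalytic centre, was at 1067, 1117 and 1018 CPM without and at 1024, 1190 and 1158 CPM with CL097. The groups overlapped, and the log2 fold change was 0.07 with a 95% interval from -0.08 to 0.23. Prpf6, which bridges U5 to U4/U6, was at 135.5, 123.9 and 118.9 CPM and at 109.7, 94.6 and 97.9 CPM. Its CL097 values were all below its unstimulated values, with a log2 fold change of -0.33 (adjusted p = 0.00368), under the fold threshold. Prpf18, a factor of the second catalytic step, was at -0.26 (adjusted p = 0.0314), and the remaining 4 genes, Prpf38a, Prpf39, Prpf4b and Prpf38b, at 0.46, 0.36, 0.33 and 0.16.

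All 10 kept SR protein genes were higher at an adjusted p under 0.05, beside 33.6% of all tested genes. Of them 5 passed the fold threshold (50.0%, beside 25.9%), and the median log2 fold change was 0.54. None was lower at an unadjusted p under 0.05 in limma. The sum over Srsf was 1950.4, 2116.2 and 2296.6 CPM without and 3529.4, 3331.2 and 3209.7 CPM with CL097, a ratio of 1.58.

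Srsf7 (chromosome 17, 80200080 to 80207307, minus strand), which also serves as an adaptor in mRNA export, was at 136.1, 167.5 and 174.4 CPM and rose to 428.8, 399.2 and 398.1 CPM. No unstimulated library came near the CL097 range, and the log2 fold change was 1.37 (SE 0.10, limma adjusted p = 1.86e-05). Srsf2 (chromosome 11, 116849901 to 116853094, minus strand), long known as the speckle protein SC35, was at 243.2, 243.5 and 277.8 CPM and rose to 597.2, 532.3 and 522.8 CPM. Here too the groups did not overlap, with a log2 fold change of 1.11 (SE 0.08, limma adjusted p = 2.16e-05), and exons of Mettl23 and Mfsd11 overlap it on the other strand. Srsf4 (chromosome 4, 131873617 to 131901706, plus strand) followed, from 92.5, 101.3 and 94.3 CPM to 152.5, 171.5 and 180.9 CPM (0.81, SE 0.07), without overlap.

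Srsf10, a repressor of splicing when it loses its phosphates, rose by 0.80 on the log2 scale and Srsf6 by 0.64. Srsf6 was at 197.5, 228.7 and 234.9 CPM and at 381.6, 347.3 and 304.2 CPM, and it differed by 0.95, 0.60 and 0.37 within pairs 1 to 3. Without number 1 its log2 fold change was 0.49 (limma adjusted p = 5.15e-05), below the fold threshold. Without the filter on low values its adjusted p was 0.0725. The remaining SR genes, Srsf3, Srsf1, Srsf5, Srsf9 and Srsf11, lay between 0.33 and 0.43. Of these, Srsf1 (0.54) and Srsf3 (0.52) passed the fold threshold without number 3. Srsf12 missed the filter, with 0.37, 0.14 and 0.22 CPM in the unstimulated and 0.03, 0.04 and 0.03 CPM in the CL097 libraries, too low to be read as a difference.

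Of 18 hnRNP genes, 6 rose (33.3%, beside 25.9% of all tested genes), 1 fell (5.56%, beside 25.8%) and 11 were not called, with a median log2 fold change of 0.19. That median was 0.11 without number 2 and 0.30 without number 3. At an adjusted p under 0.05 without the fold threshold, 8 were higher and 6 lower, and the share lower was near that of all tested genes (33.0%). These transcripts are the most abundant of the 6 prefixes, and the ratio of their sums was the smallest, from 6404 ± 196.0 to 7230.0 ± 149.8 CPM (SD, n = 3), a ratio of 1.13. Their share of the summed level of all members went from 45.8% to 40.5%, while that of Srsf went from 15.2% to 18.8% and that of Snrp from 5.34% to 7.75%.

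Hnrnpab (chromosome 11, 51600100 to 51606847, minus strand), which encodes an RNA-binding protein of nucleus and cytoplasm, was at 493.5, 419.3 and 470.2 CPM without and at 1105, 995.3 and 1039 CPM with CL097. All CL097 values were above all unstimulated values, with a log2 fold change of 1.18 (SE 0.06, limma adjusted p = 3.31e-06). Per kb of exon it was the highest of the 60 members in both groups, at 165.7 and 376.0 CPM per kb. Exons of Phykpl lie opposite to its own.

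Hnrnpr, whose product is related to a factor of mRNA stability, was at 153.8, 130.6 and 140.6 CPM and rose to 246.3, 233.9 and 238.4 CPM (log2 fold change 0.76, SE 0.06, limma adjusted p = 4.35e-05). Hnrnpc, whose product binds uridine tracts of nascent transcripts, was at 497.0, 468.2 and 482.0 CPM and rose to 805.6, 741.9 and 746.5 CPM (0.66, SE 0.05, limma adjusted p = 3.87e-05). Neither gene's groups overlapped. Hnrnpa3 rose by 0.59 and Hnrnpd, which binds AU-rich elements of cytokine transcripts, by 0.54. Hnrnpa1 was also called, at 1.16, but from only 3.49, 3.55 and 3.56 CPM to 8.22, 9.29 and 6.36 CPM. This gene has many near-identical pseudogenes, so its level depends on how shared reads were counted and is uncertain.

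Hnrnpul2 (chromosome 19, 8820010 to 8834143, plus strand), a relative of Hnrnpu linked to the DNA damage response, was the member that fell. It was at 454.1, 460.8 and 438.7 CPM without and 258.1, 268.7 and 259.9 CPM with CL097. The values within each group were within a few percent of one another and the groups far apart, with a log2 fold change of -0.78 (SE 0.06, limma adjusted p = 1.96e-05), 1.72-fold lower. One annotated gene overlaps its exons on the same strand. Its relative Hnrnpul1 had a log2 fold change of -0.42 (adjusted p = 0.00321), which was -0.52 without number 3 and then past the fold threshold.

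Hnrnpm (-0.33), Hnrnpl (-0.31), Hnrnpa2b1 (-0.27) and Hnrnph1 (-0.18) were lower at an adjusted p under 0.05 but under the fold threshold. Hnrnpa2b1 was the most abundant member after Hnrnpab and Prpf8 in unstimulated cells on the per kb scale, at 139.2 CPM per kb, and it was at 115.6 CPM per kb with CL097. Hnrnpf (0.38) and Hnrnpk (0.21) were higher and likewise under the threshold. Hnrnpu, Hnrnpa0, Hnrnph2 and Hnrnph3 did not pass the adjusted p, and their groups overlapped.

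**Figure D3:**
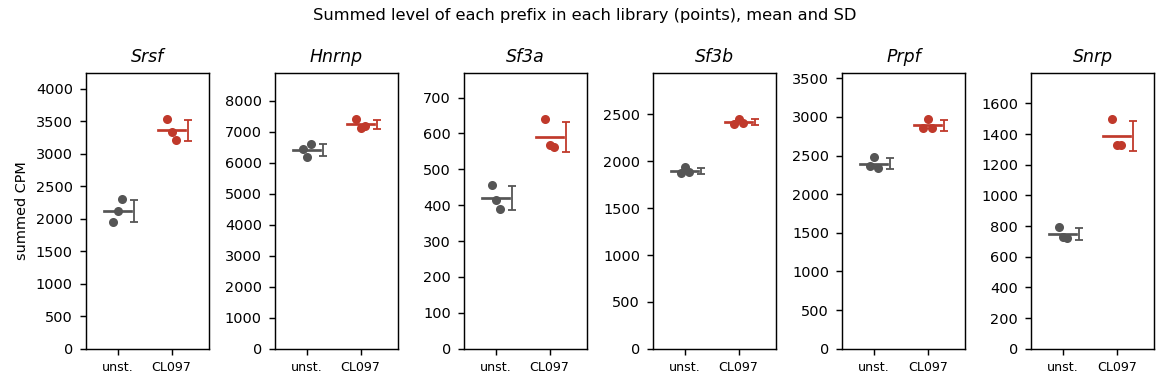
Summed level (CPM, axes from 0, a scale for each panel) of the genes of each prefix in each library, unstimulated in grey and CL097 in red, with the mean as a line and the SD as a bar. In every prefix the 3 CL097 libraries lie above the 3 unstimulated libraries, with ratios of means from 1.13 for Hnrnp to 1.86 for Snrp.

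Set side by side, the prefixes ordered by median log2 fold change were Snrp (0.70), Sf3b (0.56), Srsf (0.54), Prpf (0.45), Sf3a (0.39) and Hnrnp (0.19), and by the share of genes that rose Snrp (81.8%), Sf3b (60.0%), Srsf (50.0%), Prpf (46.2%), then Hnrnp and Sf3a (33.3% each). Members of a prefix are not replicates and no test was made between prefixes. The first and last kept their place in each pair, with medians for Snrp of 0.77, 0.67 and 0.65 within pairs 1 to 3 and for Hnrnp of 0.25, 0.32 and -0.04. Ordered by particle instead, and counting members only, 4 of 5 U1 proteins, 6 of 10 U2 proteins and 3 of 5 proteins of U4/U6 and U5 rose.

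Other genes of splicing were taken from 9 lists set by function, in which 139 of 142 genes were tested. Together 51 rose (36.7%, beside 25.9% of all tested genes) and 14 fell (10.1%, beside 25.8%), and their median log2 fold change was 0.30. The list nearest to the Sm ring had the highest median. Of 16 genes of the SMN complex and Sm protein assembly, which load the Sm ring on snRNAs, 12 rose and none fell, with a median of 0.89. None was lower at an unadjusted p under 0.05 in limma. Gemin4 went from 33.0, 27.8 and 29.0 CPM to 116.4, 105.6 and 108.9 CPM (log2 fold change 1.88, SE 0.08, limma adjusted p = 2.00e-06), with no overlap between the groups. Gemin5, whose product recognises snRNAs, rose by 1.61, Prmt5, which methylates Sm proteins, by 1.17, and Smn1 by 1.11.

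Factors that define the 3′ splice site also rose. Of 11 U2 auxiliary and branch point factors 7 rose and none fell, with U2af1, the small subunit that reads the splice site dinucleotide, at 102.2, 98.0 and 102.6 CPM without and 224.3, 219.3 and 219.0 CPM with CL097. Its groups were far apart (log2 fold change 1.13, SE 0.06). In the exon junction complex, left on mRNA after splicing, 6 of 9 rose and none fell, with Magohb at 1.71 and Eif4a3 at 0.90. Among 16 other snRNP proteins 7 rose and none fell, led by Nhp2l1, which binds U4 and is shared with nucleolar particles (1.38). Among 9 Sm-like LSM proteins 3 rose (33.3%, not far from the 25.9% of all tested genes) and none fell, led by Lsm7 (1.01). In these 4 lists no gene was lower at an unadjusted p under 0.05 in limma.

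The PRP19 and minor spliceosome lists had medians of 0.12 and 0.11, and their shares of genes that rose, 5 of 25 and 3 of 12, were near or under that of all tested genes (25.9%). Of 25 PRP19 complex and catalytic step factors 5 rose and 1 fell, with Ppil1 at 1.07 and Syf2 at -0.58. The minor spliceosome, which removes a rare class of introns, had 3 of 12 genes higher and 2 lower: Snrnp35 at 1.21, and Snrnp25 at -1.67, from 48.8, 42.6 and 40.3 to 15.0, 13.7 and 12.6 CPM. The groups of Snrnp25 did not overlap. Without number 1 the minor spliceosome had 1 gene higher and 3 lower and a median of 0.03.

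Among the SR protein kinases and phosphatase regulators, more genes fell than rose. Of these 9 genes, 2 rose (22.2%, near the 25.9% of all tested genes) and 4 fell (44.4%, beside 25.8%). The median log2 fold change was -0.14. The median was -0.24 without number 1 and -0.08 without number 3, and 1 gene rose in either case. Srpk1, a kinase that sends SR proteins to the nucleus, rose from 76.2, 80.8 and 77.5 to 140.6, 128.2 and 109.6 CPM (log2 fold change 0.68, SE 0.09). Its relatives Srpk3 and Srpk2 fell by 1.94 and 0.92 on the log2 scale, and Clk1, a nuclear kinase of SR proteins, by 0.84. Dyrk1a also fell (-0.51). Clk2 (0.22), Clk3 (0.03) and Clk4 (-0.14) were not called, and their groups overlapped. The sign of Srpk1 was that of the 10 SR genes, and Srpk2, Srpk3 and Clk1 had the opposite sign. The other gene that rose, the phosphatase regulator Ppp1r8, stood at 0.50, at the fold threshold.

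Among 32 other splicing regulators 6 rose (18.8%) and 7 fell (21.9%), both shares under those of all tested genes, with a median of 0.18 that was 0.09 without number 1. The leading rise was that of Tra2a, an SR-like protein (0.96). Mbnl2 fell by 1.71 and Mbnl1, its paralog, by 1.12, both muscleblind proteins that steer alternative exons during development. Mbnl1 was at 946.2, 844.5 and 973.5 CPM without and at 423.7, 417.9 and 430.8 CPM with CL097, and its groups were far apart.

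**Figure D4:**
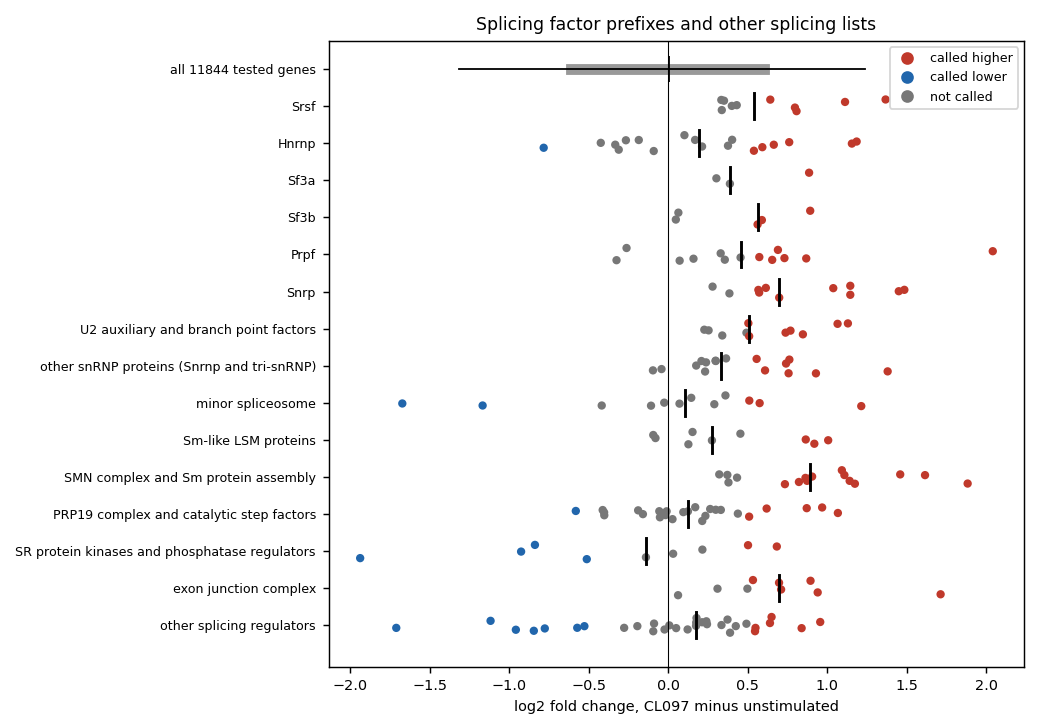
Log2 fold change (x axis, CL097 minus unstimulated) of each gene of the 6 prefixes and the 9 other splicing lists, with a black bar at each median and, in the top row, the median, quartiles (box) and 10th to 90th percentile (line) of all 11844 tested genes. Medians run from -0.14 for the SR protein kinases and phosphatase regulators to 0.89 for SMN complex and Sm protein assembly.

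A few genes of the same families carry older symbols in the files, fall outside the name rule and were looked up after the values had been seen. Hnrpdl, now Hnrnpdl, rose by 0.61 on the log2 scale, from 338.7, 376.6 and 378.2 to 578.8, 541.9 and 543.8 CPM, without overlap. The row of Sf3b6, listed as 0610009D07Rik, was at 0.34 (adjusted p = 0.00349), under the fold threshold. Hnrpll, now Hnrnpll, which controls alternative splicing of the CD45 gene in lymphocytes, was at 2.01, 2.82 and 4.08 CPM without and 2.44, 5.61 and 9.14 CPM with CL097. It was higher in each pair and called (0.81, adjusted p = 0.0198), but its groups overlapped, and without pairs the adjusted p was 0.186.

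In each library 10906 to 10997 genes stood at or above 1 CPM. Quantile normalization gives each library the same distribution, so this count cannot compare their breadth. Depth is unknown, since the files hold no counts. Number 1 stood apart from the others in erythroid markers, which summed to 16.6 CPM in its unstimulated and 22.8 CPM in its CL097 library against 465.8 to 693.3 CPM in the other 4, with Hba-a1 and Hba-a2 at 1 constant value near the bottom of the deposited range in every library. Summed markers of T cells (1 of 2 tested genes higher) ranged from 1.43 to 2.97 CPM without and from 2.56 to 4.32 CPM with CL097, and those of monocytes and macrophages (2 of 5 lower) from 85.4 to 318.5 CPM and from 54.7 to 158.4 CPM. Neutrophil markers (3 of 4 lower) ranged from 23.4 to 56.0 CPM and from 12.2 to 37.5 CPM, and NK cell markers (1 tested, lower) from 2.65 to 4.77 CPM and from 2.10 to 3.30 CPM. Plasma cell markers (3 of 4 lower) went from 362.0 to 390.1 CPM to between 147.0 and 162.6 CPM, and dendritic cell markers (1 of 4 higher, 1 lower) from 29.2 to 49.3 CPM to between 75.6 and 93.7 CPM, both without overlap. In both groups number 1 also had the lowest sums of B cell, T cell, monocyte and macrophage, neutrophil and plasma cell markers. Its sums of NK and dendritic cell markers were the highest. The part of these markers in the results was not tested. Without number 1, 28 members rose, and 1 fell, and the median was 0.47 (log2 fold change).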

How the data were processed

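RNA of purified B cells was sequenced as stranded mRNA libraries. Per the submitters' processing notes, the tools were STAR 2.6.1a, featureCounts (Subread 2.0.1), limma, Trim Galore 0.6.5 and FastQC 0.11.7, on build mm10. The authors deposited log2 CPM after voom with quantile normalization, 1 file per library. Which annotation was used, and whether strand was counted, is not given in the sources used here. Because quantile normalization gives each library the same distribution, every change is relative to the other genes, and total RNA per cell was not measured. No counts are held, so depth is unknown and no counting interval is given. Among the 17935 genes with more than 1 distinct value, 2655 to 3108 had identical values in the libraries of 1 number, against 347 to 404 between numbers, as a shift shared by a number would give. Such a shift cancels within pairs.

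Genes at a log2 CPM of -1 or more in at least 3 of 6 libraries were kept. In limma 3.58.1 (R 4.3.3), log2 values were fitted on group and replicate number, with variances moderated along a mean-variance trend, two-sided, with Benjamini-Hochberg adjustment over all 11844 genes. No pseudocount was added. SE is the standard error of a log2 fold change, and folds are its antilog. The block was used because the comparison is by pairs and both conditions drew on cells of 3 mice. Deviations from the group means correlated between libraries of 1 number, across genes, at 0.568, 0.326 and 0.458, all over the limit of 0.1. Numbers 2 and 3 crossed gave 0.209 and 0.172. A shift shared by a number could raise the correlations within it, so they do not show that a number stands for a mouse. The fit was tested on simulated data.

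Members named with all values were, per prefix, up to 3 called genes with the largest rise and up to 3 with the largest fall at a mean of at least 10 CPM, any called gene against its prefix's direction and, per other list, the largest rise and fall. Further genes were named to account for all members or after their values were seen. The members and lists were chosen with earlier results of these data known. Coordinates and exons came from GENCODE M21 (GRCm38, also called mm10), counted from 1, and upstream windows of 250 bases from RefSeq (GRCm38.p6). Alternatives changed the block, filter, pseudocount, scaling, variance model, fold threshold or libraries. Python 3.11.15 was used for summaries. The values of 1 member are not reported here, though the counts include it.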

Additional observations from a re-analysis of the deposited data

How the results depend on the processing

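No member and no prefix or list median changed sign under any alternative, while the median of all tested genes, 0.002, was -0.006 without number 1. Without the replicate block, 30 members rose and 1 fell, and no member changed its call. Of the members' calls, other filters, a pseudocount of 1, median centring, cyclic loess, equal library sums and other variance models changed that of Srsf6 alone (adjusted p = 0.0725 with no filter). Under these settings, only the Sf3b median (0.54 under cyclic loess) moved by more than the spread between replicates. Only the count of SR protein kinases and phosphatase regulators that rose moved by over 1.5 times. It was 1 with a pseudocount of 1 and 1 under cyclic loess. Leaving out a number from both groups gave 28 to 32 members higher, 1 to 2 lower and a median of 0.47 to 0.54. Srsf6 and Snrpb2 were lost without number 1, Prpf38a (0.51) was gained without number 2, and Hnrnpul1, Srsf1 and Srsf3 without number 3. In these runs 1 to 2 Hnrnp genes fell, the Hnrnp median was 0.107 to 0.305, and the Sf3b median was 0.53 to 0.58. The minor spliceosome had 1 (without number 1) to 4 genes higher and 2 to 3 lower, with a median of 0.034 to 0.15. SR protein kinases and phosphatase regulators had 1 to 2 higher (1 without number 1 and without number 3), with a median of -0.239 to -0.081. The exon junction complex median was 0.61 to 0.72, and that of other regulators 0.088 to 0.192.

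With the fold threshold raised to a log2 of 1, 1647 of all 11844 tested genes rose and 1727 fell. Of the 60 members 10 rose and 0 fell: 2 Srsf, 2 Hnrnp (0 lower), 0 Sf3a, 0 Sf3b, 1 Prpf and 5 Snrp genes. The share of members that rose was then much nearer to that of all tested genes than at the threshold of 0.5. Of the 139 tested genes of the other lists 14 rose and 5 fell, and both shares were under those of all tested genes. Those that rose were 2 U2 auxiliary, 1 other snRNP, 1 minor spliceosome, 1 LSM, 7 SMN and assembly, 1 PRP19 (0 lower) and 1 exon junction gene. Of the kinases 0 rose and 1 fell, and of the other regulators 0 rose and 2 fell. With the adjusted p alone, an alternative added after seeing the data, 8 members fell, among them 6 Hnrnp and 2 Prpf genes, and 10 Srsf and 3 Sf3a genes rose. In the lists, 83 genes rose (59.7%, beside 33.6% of all tested genes): 11 U2 auxiliary, 12 other snRNP, 5 LSM, 11 PRP19 (4 lower) and 15 other regulators among them. Depth is unknown, so low genes such as Prpf40b and Hnrnpa1 carry an error that was not measured by counts, and with 3 libraries a group the spread of each gene rests largely on that of all genes.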
